A study of Homo sapiens with 12 samples.

Results

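The genes followed here are 46 genes of the G2/M transition and of mitosis, given by symbol in a list of mitotic kinases, spindle, kinetochore and anaphase-promoting complex genes. Each of the 46 symbols was found among the 22506 genes of the deposited count table, and 46 of 46 passed the filter on low counts that left 14008 genes for testing. They were measured by RNA sequencing in 4 human lung cancer cell lines, named in the labels H1703, H1299, CHAGO and CALU. Each line gave 1 library of parental cells, which the labels also call adherent, 1 of tumor initiating cells (TICs) and 1 of TICs with knockdown of PRKCI, the gene of the atypical protein kinase C iota. All 12 libraries come from established lines, so each group of 4 is 1 library per line and the line is the replicate. In the main fit, level differences between lines are removed. Its p values for states rest on how the differences between states vary from line to line. In the test of differences between lines, the libraries of a line in its different states stand in as its replicates. A test that singles out 1 line has 1 library of that line per state. The sources used here do not give how TICs were obtained or how PRKCI was knocked down. Parental cells with the knockdown, which the design text names, were not analysed here.

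Cells that leave G2 are driven into mitosis by cyclin B bound to CDK1, whose activity is released by CDC25 phosphatases and reinforced by the PLK1 and Aurora kinases. Kinetochores then link chromosomes to a spindle built with motor proteins of the kinesin superfamily, and the spindle checkpoint holds back the anaphase-promoting complex (APC/C) until every chromosome is attached. Most of these genes are transcribed late in the cell cycle under B-MYB (MYBL2) and FOXM1, so their messenger RNA is commonly read as a sign of proliferation in tumors.

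Promoters of such genes often hold 2 short elements, the cell cycle genes homology region (CHR), at which the MuvB complex binds, and CCAAT boxes, at which NF-Y binds. RefSeq promoter windows of GRCh38.p14, running from 250 bases before to 50 bases after a transcript start, were at hand for 39 of the 46 genes. CHR letters were searched as TTTGAA and TTCGAA and CCAAT letters as CCAAT, on both strands, so that TTCAAA and ATTGG also count. At least 1 CHR match was found in 28 of the 39 windows (71.8%), against 11.3% of the windows of 9563 tested genes. At least 1 CCAAT match was found in 29 windows (74.4% against 36.7%), and 18 windows held 2 or more (46.2% against 13.4%). Both kinds stood together in 23 windows (59.0% against 4.77%), and 5 windows, those of CENPE, MYBL2, KIF2C, CDC25B and CDC25C, held neither. Within the windows, 20 of 37 CHR matches, in 17 genes, began in the last 60 bases before the start. A CHR and a CCAAT match shared bases in MKI67 and in CDCA8. These are matches of letters and not measured binding sites. The 250 bases before the start are printed for 5 genes that hold both kinds there, in order of their p value in TICs against parental cells, with CHR and CCAAT letters in capitals.
HMMR, chr5:163460382-163460631, plus strand: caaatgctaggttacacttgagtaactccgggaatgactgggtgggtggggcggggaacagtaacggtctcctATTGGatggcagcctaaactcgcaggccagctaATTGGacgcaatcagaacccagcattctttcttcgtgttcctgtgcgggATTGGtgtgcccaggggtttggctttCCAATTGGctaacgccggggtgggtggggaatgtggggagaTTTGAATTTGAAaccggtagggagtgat
KIF11, chr10:92592880-92593129, plus strand: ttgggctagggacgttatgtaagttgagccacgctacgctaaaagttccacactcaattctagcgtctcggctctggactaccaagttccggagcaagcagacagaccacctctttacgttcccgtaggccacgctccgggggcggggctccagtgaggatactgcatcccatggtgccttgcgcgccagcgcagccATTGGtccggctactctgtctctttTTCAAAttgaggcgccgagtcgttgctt
KIF23, chr15:69414099-69414348, plus strand: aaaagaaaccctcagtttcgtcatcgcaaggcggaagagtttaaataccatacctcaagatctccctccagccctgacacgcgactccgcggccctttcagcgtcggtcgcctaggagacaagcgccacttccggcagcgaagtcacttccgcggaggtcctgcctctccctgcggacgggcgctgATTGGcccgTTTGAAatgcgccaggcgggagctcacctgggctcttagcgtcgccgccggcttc
ASPM, chr1:197146670-197146919, minus strand: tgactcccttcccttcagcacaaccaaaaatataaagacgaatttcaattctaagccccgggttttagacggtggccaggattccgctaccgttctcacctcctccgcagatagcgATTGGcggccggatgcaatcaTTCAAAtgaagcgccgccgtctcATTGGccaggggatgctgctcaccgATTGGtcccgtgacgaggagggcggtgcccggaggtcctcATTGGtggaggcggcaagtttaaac
KIF4A, chrX:70289854-70290103, plus strand: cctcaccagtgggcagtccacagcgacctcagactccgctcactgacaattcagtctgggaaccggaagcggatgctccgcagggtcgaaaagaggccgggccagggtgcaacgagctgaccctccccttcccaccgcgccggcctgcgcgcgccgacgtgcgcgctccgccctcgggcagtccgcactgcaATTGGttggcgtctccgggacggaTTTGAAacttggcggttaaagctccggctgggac
In HMMR 2 CHR matches lie side by side from 28 and 22 bases before the start, behind 5 CCAAT matches of which 2 share letters. KIF11 and KIF4A carry a single CCAAT match 53 and 58 bases before the start, followed by a single CHR match at 28 and 34 bases before it. In KIF23 both matches lie close together, at 64 and 55 bases before the start, and in ASPM the CHR match lies among 4 CCAAT matches. CENPF, which stands between KIF23 and ASPM in the order of p, holds its CHR match after the start and is not printed.

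**Figure D1:**
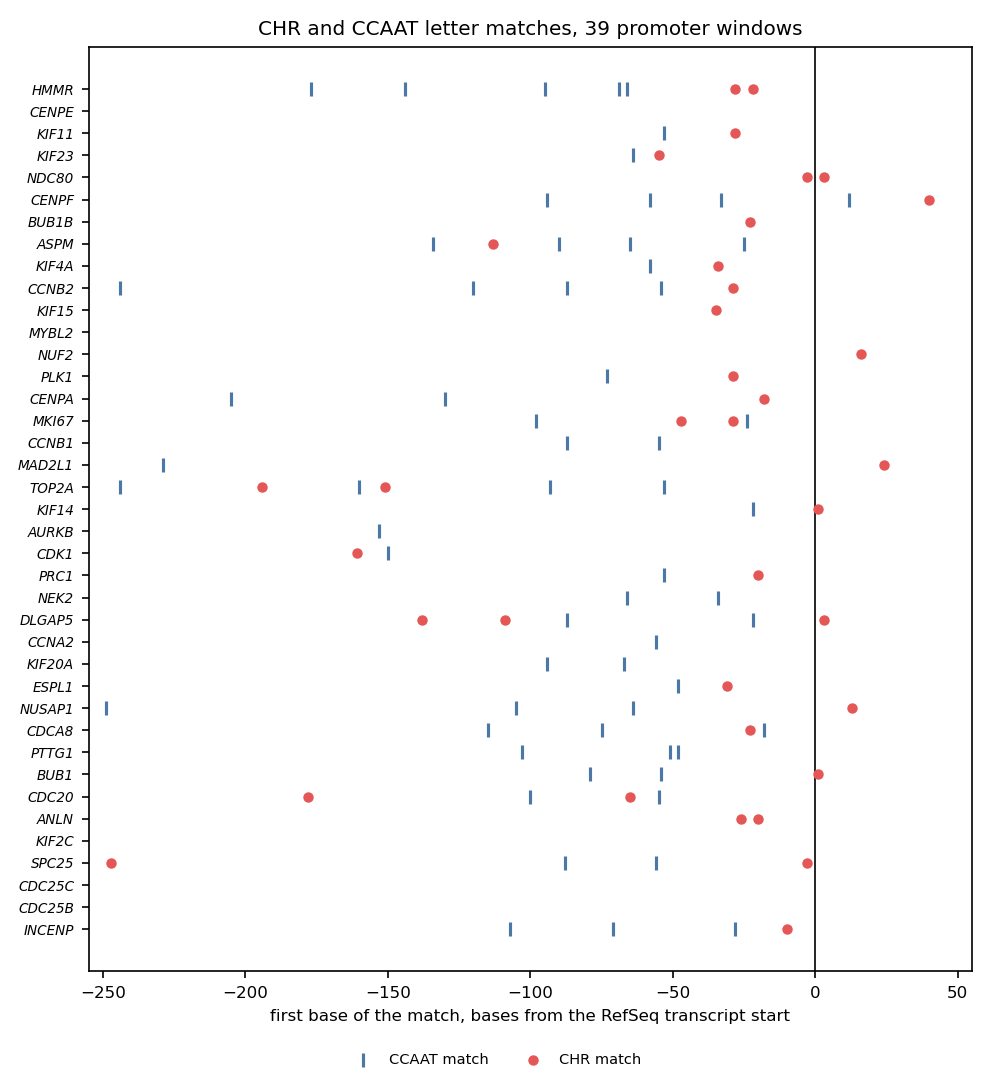
CHR letters (red points) and CCAAT letters (blue bars) in the RefSeq promoter windows of 39 mitosis genes, one gene per row in order of p in TICs against parental cells; the horizontal axis gives the first base of each match in bases from the transcript start. CHR matches gather in the last 60 bases before the start, where 20 of 37 begin, and CCAAT matches mostly lie upstream of them.

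Levels are TMM-scaled counts-per-million values (CPM), and the 4 values of a state are always listed in the order H1703, H1299, CHAGO and CALU. PRKCI, the targeted gene, stood at 303, 309, 357 and 261 CPM in parental cells, 342, 199, 608 and 237 CPM in TICs and 58.1, 25.8, 23.2 and 41.5 CPM in knockdown TICs. The knockdown libraries were the lowest of each line, and the groups of knockdown TICs and TICs did not overlap. The log2 fold change of knockdown TICs against TICs was −3.15 (SE 0.37, edgeR adjusted p = 0.0489), lower in 4 of 4 lines. This call was lost without any 1 line, with adjusted p from 0.0537 to 0.597 in edgeR, and held in DESeq2. The libraries held 21.2 to 36.1 M reads (M, mega) in H1703 and H1299 and 63.8 to 91.8 M in CHAGO and CALU. The title of the series speaks of squamous cell carcinoma, but in the 6 libraries of H1703 and H1299 the squamous marker TP63 reached at most 0.225 CPM and KRT5, KRT6A, KRT14 and DSG3 had no reads. SOX2, also amplified in squamous tumors, was at 6.09 to 38.8 CPM in H1299, at most 3.38 CPM in H1703, 2.35 to 17.03 CPM in CHAGO and without reads in CALU. TP63 was at 4.26 to 43.9 CPM in CHAGO and 2.73 to 45.2 CPM in CALU. The other squamous genes differed between these 2 lines. In CHAGO KRT6A reached 43.6 CPM, DSG3 30.4 CPM, KRT5 2.52 CPM and KRT14 2.47 CPM. In CALU KRT6A and DSG3 had no reads, KRT5 reached 0.193 CPM and KRT14 1.96 CPM. Of the epithelial markers, CDH1 was at 826 to 1105 CPM in CHAGO, at most 4.35 CPM in CALU and without reads in H1703 and H1299, whereas KRT19 reached 237 CPM in CALU and KRT18 lay between 20.1 and 21.9 CPM in H1299. Of genes used as TIC and stem cell markers, CD44 was at 618 to 987 CPM in H1299, 2143 to 4388 CPM in CALU and without reads in H1703, and ALDH1A1 at 90.3 to 270 CPM in H1703. CHAGO held at most 2.80 CPM of CD44 and 0.705 CPM of ALDH1A1. From parental cells to TICs, CD44 went from 694 to 987 CPM in H1299 and from 2143 to 4388 CPM in CALU. ALDH1A1 went from 270 down to 90.3 CPM in H1703. SOX2 went from 8.09 up to 38.8 CPM in H1299 and from 17.03 down to 5.57 CPM in CHAGO. NANOG had no reads, POU5F1 stayed under 1 CPM and PROM1 reached at most 1.09 CPM. The leukocyte genes PTPRC and CD3E stayed under 1 CPM in every library, CD14 reached 4.06 CPM in CHAGO knockdown TICs, and ITGAM reached 78.9 CPM in H1703 parental cells and at most 2.68 CPM in the other libraries. Of fibroblast genes, PDGFRA was at 2554 to 3076 CPM in H1703 and at most 4.13 CPM in the other lines. In CALU COL1A1 was at 301 to 1340 CPM, and PDGFRB reached 9.38 CPM, LUM 34.8 CPM and DCN 25.5 CPM. Of endothelial genes, PECAM1 reached 44.96 CPM and KDR 26.3 CPM in CALU. CDH5 reached 3.34 CPM in CHAGO and had no reads in the other lines, and VWF stayed under 1 CPM.

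In TICs, 44 of the 46 mitosis genes had a lower fitted level than in parental cells (43 with the authors' mode-normalized values). None of them passed the test, and the size of the difference varied between the lines, each of which gave 1 library per state. The median log2 fold change over the 46 genes was −1.05, against −0.02 over all 14008 tested genes, of which 51.3% were lower. By line the median difference was −2.50 in CALU, −1.32 in H1299 and −0.42 in H1703, whereas in CHAGO it was 0.42. Genes lower in TICs numbered 45 in CALU, 44 in H1299, 37 in H1703 and 8 in CHAGO. A test of 1 line against the other 3 was added after these values were seen, as an interaction of line and state in edgeR, which leaves 4 residual degrees of freedom. For CHAGO it called 0 of the 46 genes (0.0357% of all tested genes), with a smallest adjusted p of 0.495, of KIF23. Before adjustment, 23 of the 46 had a p under 0.05, each with a higher difference in CHAGO, beside 3.47% of all tested genes with that direction. For CALU 0 of 46 were called, as were 0 of all tested genes. There 24 of the 46 had an unadjusted p under 0.05, each with a lower difference, beside 2.23% of all tested genes in that direction. For H1703 and for H1299 0 genes were called, of the 46 and of all tested genes. At that p there were 0 of the 46, beside 5.53% (H1703) and 6.25% (H1299) of all tested genes in either direction.

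At an adjusted p of 0.05, edgeR called 0 of the 46 genes, in a comparison where 0.0286% of all tested genes were called. The smallest adjusted p was 0.213, of HMMR. At an unadjusted p under 0.05 there were 27 of the 46, each of them lower in TICs, beside 6.06% of all tested genes that were lower at that p. This count fell to 4 without CALU and 7 without H1299, and was 38 without CHAGO. Lower in 4 of 4 lines were 8 of 46 (17.4%), beside 8.97% of all tested genes: PLK1, CENPE, CENPF, NDC80, KIF11, HMMR, ASPM and MYBL2. A further 28 of 46 (60.9%) were lower in H1703, H1299 and CALU and higher in CHAGO, a pattern of 7.55% of all tested genes, looked for after the values of CHAGO were seen. DESeq2 called 2 genes, CENPE and HMMR (4.35%), beside 3.63% of all tested genes in either direction. Of all 14008 tested genes it called 185 lower. In limma voom 0 of the 46 were called, beside 1.21%, with a smallest adjusted p of 0.0633. Without CALU the median was −0.53 and 42 genes were lower, and without CHAGO it was −1.46 with 44 lower. In bulk RNA, fewer cells in G2 and mitosis and less mitotic RNA per cell cannot be told apart.

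Summed over the 46 genes, the level in parental cells was 12326, 10603, 10597 and 17438 CPM, in TICs 9244, 4301, 13627 and 3194 CPM and in knockdown TICs 7684, 5208, 12946 and 4212 CPM. The sum was 1.33-fold lower in TICs than in parental cells of H1703, 2.47-fold lower in H1299 and 5.46-fold lower in CALU, and it was 1.29-fold higher in CHAGO. As a share of all counted reads, the genes took from 1.11% to 1.65% in parental cells and from 0.289% to 1.34% in TICs. The 4 parental libraries thus lay closer together than the 4 TIC libraries, at 12741 ± 3235 against 7591 ± 4807 CPM (SD, n = 4). Of the 12 libraries, CALU TICs held the lowest value of 29 genes and CALU parental cells the highest of 12. CHAGO and CALU, the more deeply sequenced lines, held the highest and the lowest sums of the TIC group.

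**Figure D2:**
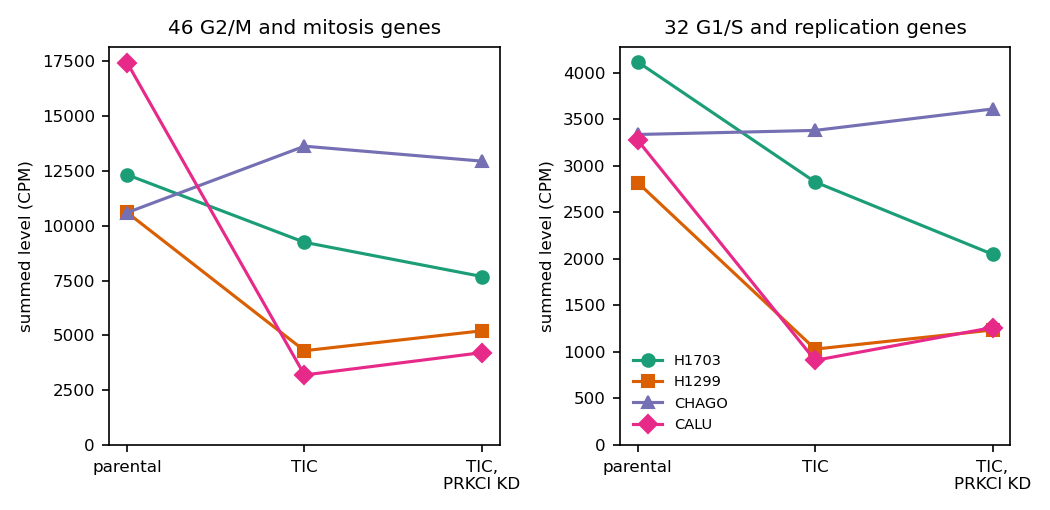
Summed CPM of the 46 G2/M and mitosis genes (left) and of 32 G1/S and replication genes (right) in each library, on a linear axis from 0, with one line of points per cell line across parental cells, TICs and PRKCI knockdown TICs. From parental cells to TICs the left sum goes from 17438 to 3194 CPM in CALU and from 10597 to 13627 CPM in CHAGO.

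**Figure D3:**
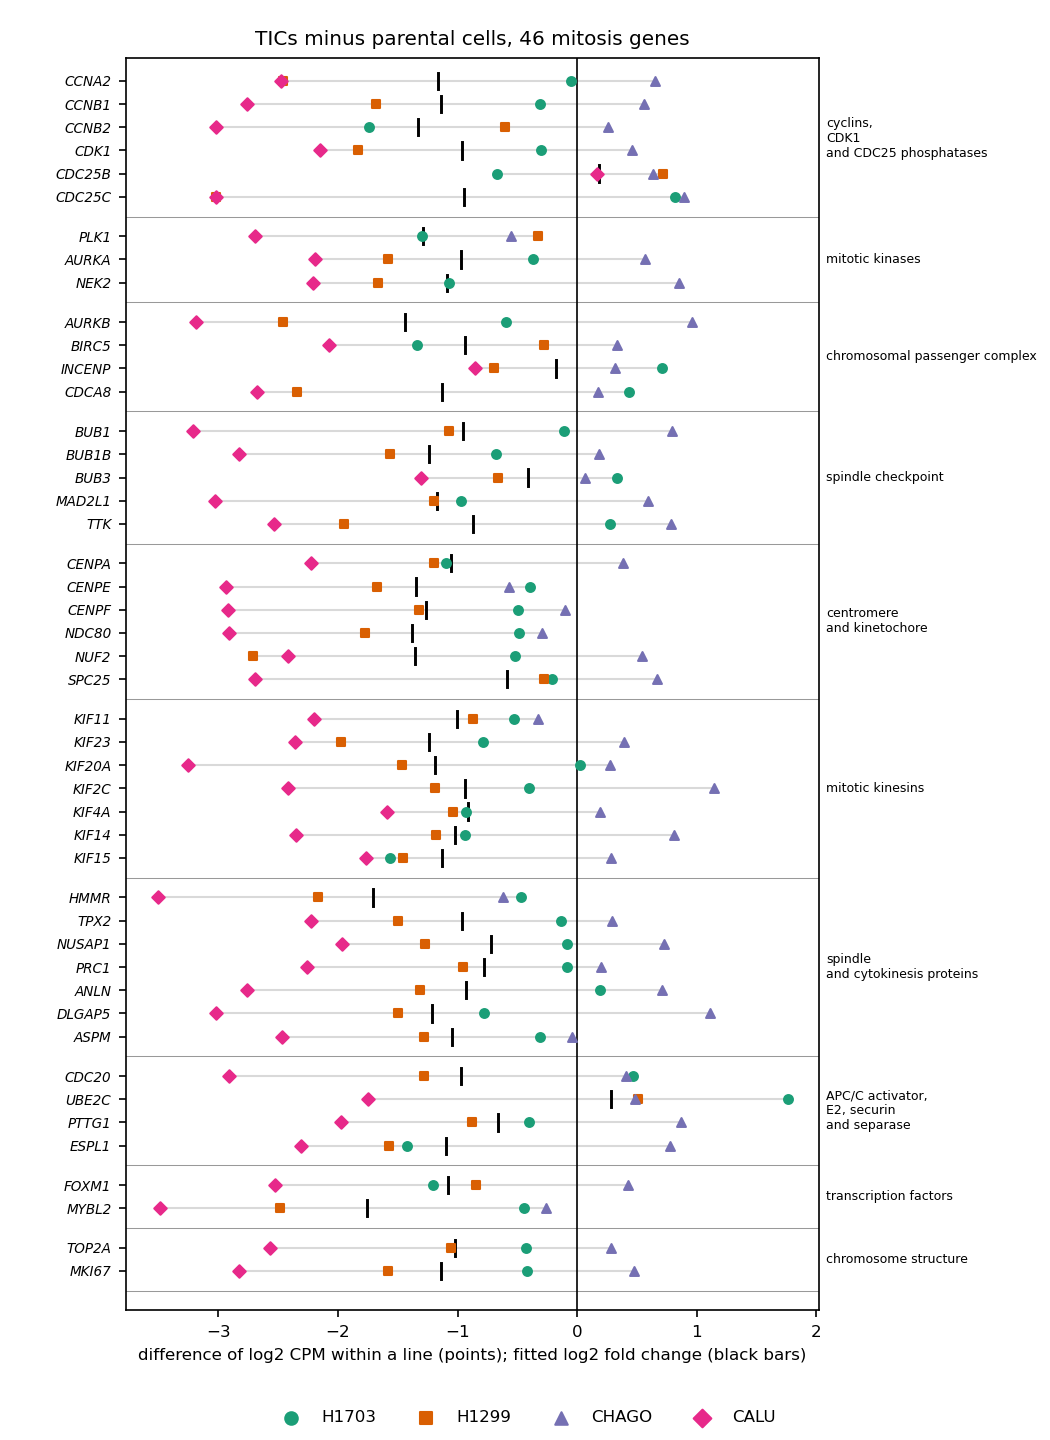
Difference of log2 CPM between TICs and parental cells within each line (coloured points) and fitted log2 fold change (black bars) for the 46 genes, grouped by role. CALU lies farthest to the left for 44 of the 46 genes and CHAGO lies right of 0 for 38.

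The cyclins, CDK1 and the CDC25 phosphatases form the switch into mitosis, and 5 of 6 were lower in TICs, with a median log2 fold change of −1.05. CCNB1, the B-type cyclin that activates CDK1, stood at 202, 508, 352 and 501 CPM in parental cells, 163, 158, 519 and 74.1 CPM in TICs and 167, 184, 422 and 116 CPM in knockdown TICs. The TIC value was below the parental value in H1703, H1299 and CALU and above it in CHAGO, and the groups overlapped. Its log2 fold change was −1.13 (SE 0.46, edgeR adjusted p = 0.366). CDK1, the kinase itself, stood at 55.7, 95.1, 166 and 109 CPM in parental cells, 45.2, 26.7, 228 and 24.5 CPM in TICs and 31.3, 57.99, 285 and 55.9 CPM in knockdown TICs. CHAGO was the highest library of CDK1 in each state, and the log2 fold change was −0.96 (SE 0.42, edgeR adjusted p = 0.405). CCNA2, the cyclin of S and G2 phase, stood at 111, 206, 290 and 254 CPM in parental cells, 107, 37.5, 454 and 45.6 CPM in TICs and 51.99, 74.8, 543 and 68.01 CPM in knockdown TICs. It too was highest in CHAGO in each state, while in H1299 and CALU the TIC value was far below the parental one, for a log2 fold change of −1.16 (SE 0.54, edgeR adjusted p = 0.450). CCNB2, the second B-type cyclin, had the smallest p of this group, with 2351, 5575, 6574 and 17153 reads in parental cells, 568, 2963, 9641 and 2015 in TICs and 897, 1481, 11355 and 3783 in knockdown TICs. That corresponds to 85.5, 145, 98.6 and 198 CPM in parental cells, 25.6, 95.7, 118 and 24.3 CPM in TICs and 34.6, 65.4, 150 and 53.3 CPM in knockdown TICs. CCNB2 was lower in TICs in 3 lines and higher in CHAGO, a log2 fold change of −1.33 (SE 0.47, edgeR adjusted p = 0.314). CDC25C, a phosphatase that activates CDK1, had a log2 fold change of −0.95 with a wide SE of 0.87, lower in H1299 and CALU and higher in H1703 and CHAGO. CDC25B, the related phosphatase that acts earlier in G2, was at 0.18 and higher in TICs in 3 of 4 lines, all but H1703.

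Each of the 3 mitotic kinases had a lower fitted level in TICs, with a median of −1.08. PLK1, which acts at centrosomes, kinetochores and in cytokinesis, had 8811, 3330, 5691 and 9439 reads in parental cells, 2892, 2136, 4769 and 1396 in TICs and 5758, 919, 8696 and 1180 in knockdown TICs. In CPM it stood at 320, 86.6, 85.4 and 109 in parental cells, 130, 68.96, 58.3 and 16.9 in TICs and 222, 40.6, 115 and 16.6 in knockdown TICs. It was lower in TICs in 4 of 4 lines, CHAGO included, and the groups still overlapped because H1703 was high in each state. The log2 fold change of PLK1 was −1.29 (SE 0.48, edgeR adjusted p = 0.333). AURKA, the Aurora kinase of spindle poles, stood at 159, 258, 304 and 292 CPM in parental cells, 123, 86.1, 451 and 63.9 CPM in TICs and 142, 97.2, 347 and 84.7 CPM in knockdown TICs. The CHAGO TIC library was above every parental library of AURKA, and the log2 fold change was −0.97 (SE 0.40, edgeR adjusted p = 0.369). NEK2, a centrosome kinase, was at −1.08 (SE 0.48, edgeR adjusted p = 0.416), with CHAGO higher in TICs.

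The chromosomal passenger complex, which corrects faulty attachments, joins the kinase AURKB to INCENP, survivin (BIRC5) and borealin (CDCA8). AURKB had 1362, 1607, 1285 and 2614 reads in parental cells, 727, 234, 3066 and 272 in TICs and 785, 314, 2414 and 484 in knockdown TICs. Its levels were 49.5, 41.8, 19.3 and 30.2 CPM in parental cells, 32.7, 7.55, 37.5 and 3.28 CPM in TICs and 30.3, 13.9, 31.9 and 6.82 CPM in knockdown TICs. In CHAGO its TIC value lay within the range of the parental values of the other lines, and the log2 fold change was −1.44 (SE 0.62, edgeR adjusted p = 0.401), lower in 3 of 4 lines. BIRC5 stood at 72.8, 53.5, 74.6 and 117 CPM in parental cells, 28.7, 44.2, 93.9 and 27.9 CPM in TICs and 20.1, 16.7, 83.1 and 20.1 CPM in knockdown TICs. The log2 fold change of BIRC5 in TICs against parental cells was −0.93 (SE 0.43, edgeR adjusted p = 0.437), and CHAGO again lay above its parental library. INCENP, the scaffold, differed little at −0.18, lower in 2 lines and higher in 2, and CDCA8 was at −1.13 with the same split.

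The 5 spindle checkpoint genes had a median log2 fold change of −0.96, and 2 of them, BUB1B and MAD2L1, had an unadjusted p under 0.05. BUB1B, the BubR1 protein of the complex that inhibits APC/C, had 7858, 9349, 17214 and 19269 reads in parental cells, 3966, 2542, 24004 and 2595 in TICs and 6256, 2047, 21871 and 6013 in knockdown TICs. This gave 286, 243, 258 and 222 CPM in parental cells, 178, 82.1, 294 and 31.3 CPM in TICs and 241, 90.3, 289 and 84.7 CPM in knockdown TICs. BUB1B was between 222 and 286 CPM in the 4 parental libraries and spread from 31.3 to 294 CPM in TICs, a log2 fold change of −1.24 (SE 0.40, edgeR adjusted p = 0.283). BUB1, the kinase that recruits the checkpoint to kinetochores, stood at 219, 417, 167 and 412 CPM in parental cells, 203, 198, 290 and 44.4 CPM in TICs and 125, 274, 290 and 86.4 CPM in knockdown TICs. Its value in CALU TICs was the lowest of the 12, and the log2 fold change was −0.96 (SE 0.56, edgeR adjusted p = 0.557). MAD2L1, which encodes MAD2, stood at 35.7, 36.5, 166 and 117 CPM in parental cells, 18.2, 15.9, 250 and 14.3 CPM in TICs and 15.8, 12.8, 256 and 42.2 CPM in knockdown TICs. The CHAGO TIC library stood far above the other 3 TIC libraries of MAD2L1, and the log2 fold change was −1.17 (SE 0.48, edgeR adjusted p = 0.367). TTK, the kinase that starts checkpoint signalling, was at −0.87 and lower in 2 of 4 lines. BUB3, which also has roles outside mitosis, was nearest to 0 in this group at −0.41.

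All 6 centromere and kinetochore genes had a lower fitted level in TICs, with a median of −1.31, and 5 had an unadjusted p under 0.05. CENPE, a kinesin that moves chromosomes to the spindle equator, had 8806, 12863, 24477 and 32545 reads in parental cells, 5429, 3242, 20168 and 4052 in TICs and 5894, 3144, 19129 and 10837 in knockdown TICs. In CPM these were 320, 334, 367 and 376 CPM in parental cells, 244, 105, 247 and 48.9 CPM in TICs and 228, 139, 253 and 153 CPM in knockdown TICs. The 4 parental libraries of CENPE lay close together between 320 and 376 CPM, all 4 TIC libraries lay below them, and the groups did not overlap. Its log2 fold change was −1.35 (SE 0.36, edgeR adjusted p = 0.225), the second smallest adjusted p of the 46 genes. NDC80, the microtubule-binding subunit of the outer kinetochore, was the other gene without overlap, at 179 to 336 CPM in parental cells and 28.1 to 161 CPM in TICs. The TIC library was lower in each line, and the log2 fold change of NDC80 was −1.38 (SE 0.44, edgeR adjusted p = 0.275). These 2 of 46 genes compare with 0.914% of all tested genes that were lower in TICs without overlap. CENPF, a large kinetochore protein of G2 and M phase, was lower in 4 of 4 lines at −1.26, with a CHAGO difference of −0.10. NUF2, the partner of NDC80, was at −1.36, and CENPA, the histone of centromeres, at −1.05, both higher in CHAGO. SPC25, of the same complex as NDC80 and NUF2, was at −0.59.

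The 7 mitotic kinesins had log2 fold changes from −1.24 to −0.92. KIF11, the motor that pushes spindle poles apart, had 15660, 12276, 37711 and 33843 reads in parental cells, 8790, 5418, 36783 and 7054 in TICs and 8282, 5889, 41920 and 8427 in knockdown TICs. The levels were 569, 319, 566 and 391 CPM in parental cells, 396, 175, 450 and 85.2 CPM in TICs and 320, 260, 554 and 119 CPM in knockdown TICs. KIF11 was lower in TICs in 4 of 4 lines, and the groups overlapped because H1703 and CHAGO TICs, at 396 and 450 CPM, lay above the parental libraries of H1299 and CALU. Its log2 fold change was −1.01 (SE 0.31, edgeR adjusted p = 0.258). KIF23, a motor of the central spindle, was at −1.24 (SE 0.38, edgeR adjusted p = 0.262), lower in 3 of 4 lines. KIF20A, which carries the passenger complex to the midzone, was at −1.19, and KIF2C, a microtubule depolymerase, was at −0.93 with the largest CHAGO difference of the 46 genes, 1.15. KIF14, of cytokinesis, was at −1.02, KIF15, a second motor of spindle bipolarity, at −1.13 and KIF4A, a chromokinesin, at −0.92. KIF4A has a near-identical retrocopy in the genome, so the origin of its reads is uncertain.

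Among the 7 spindle and cytokinesis proteins, HMMR, which helps to focus spindle poles, had 11044, 25673, 18427 and 53878 reads in parental cells, 6440, 4602, 14738 and 4523 in TICs and 9254, 6462, 12930 and 9821 in knockdown TICs. As levels, these were 402, 668, 276 and 622 CPM in parental cells, 290, 149, 180 and 54.6 CPM in TICs and 357, 285, 171 and 138 CPM in knockdown TICs. Each line was lower in TICs, with log2 differences of −0.47, −2.17, −0.62 and −3.51, and only the H1703 TIC library, at 290 CPM, was above a parental library, that of CHAGO at 276 CPM. The log2 fold change of HMMR was −1.70 (SE 0.45, edgeR adjusted p = 0.213), 3.26-fold lower and the smallest adjusted p of the 46 genes. TPX2, the activator of AURKA on the spindle, stood at 671, 852, 472 and 718 CPM in parental cells, 610, 301, 577 and 154 CPM in TICs and 434, 251, 506 and 198 CPM in knockdown TICs. The TIC library of TPX2 was below the parental one in 3 lines, and the log2 fold change was −0.96 (SE 0.38, edgeR adjusted p = 0.355). ASPM, a spindle pole protein, was lower in 4 lines at −1.05, with −0.04 in CHAGO. The microtubule bundlers PRC1 and NUSAP1 were at −0.78 and −0.72, the contractile ring protein ANLN at −0.93 and the spindle protein DLGAP5 at −1.21, each higher in CHAGO.

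The genes of APC/C and of sister separation differed least, with 0 of 4 at an unadjusted p under 0.05. CDC20, the activator that the checkpoint restrains, stood at 27.5, 39.4, 60.03 and 49.5 CPM in parental cells, 38.03, 16.1, 79.5 and 6.56 CPM in TICs and 29.5, 13.9, 88.8 and 8.67 CPM in knockdown TICs. It was higher in TICs in H1703 and CHAGO and lower in H1299 and CALU, a log2 fold change of −0.97 (SE 0.57, edgeR adjusted p = 0.558). ESPL1, the protease separase that cuts cohesin, had 650, 946, 779 and 1043 reads in parental cells, 195, 255, 1643 and 199 in TICs and 329, 164, 733 and 459 in knockdown TICs. The corresponding levels were 23.6, 24.6, 11.7 and 12.04 CPM in parental cells, 8.78, 8.23, 20.1 and 2.40 CPM in TICs and 12.7, 7.24, 9.69 and 6.47 CPM in knockdown TICs. ESPL1 was low in all libraries, and its log2 fold change was −1.10 (SE 0.56, edgeR adjusted p = 0.483), higher in CHAGO. Securin (PTTG1), the inhibitor of separase, was at −0.66, and it has close copies in the genome that may share reads. UBE2C, the ubiquitin-conjugating enzyme of APC/C, had the highest log2 fold change of the 46 genes, 0.28 (SE 0.46, edgeR adjusted p = 0.863). It was at 37.5, 43.4, 53.4 and 78.3 CPM in parental cells and 127, 61.7, 74.9 and 23.3 CPM in TICs, higher in 3 of 4 lines and most of all in H1703. Without H1703 its log2 fold change was −0.22.

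MYBL2 and FOXM1 encode transcription factors of the late cell cycle. MYBL2, which encodes B-MYB, had 836, 639, 2215 and 514 reads in parental cells, 497, 91, 2269 and 41 in TICs and 178, 57, 1597 and 35 in knockdown TICs. In CPM this was 30.4, 16.6, 33.2 and 5.93 CPM in parental cells, 22.4, 2.94, 27.8 and 0.495 CPM in TICs and 6.87, 2.52, 21.1 and 0.493 CPM in knockdown TICs. MYBL2 was lower in TICs in 4 of 4 lines, with log2 differences of −0.44, −2.48, −0.26 and −3.49, and the groups overlapped because the lines differed in level. At −1.76 (SE 0.63, edgeR adjusted p = 0.318) it had the lowest log2 fold change of the 46 genes. FOXM1 stood at 356, 163, 82.9 and 173 CPM in parental cells, 155, 91.04, 112 and 29.97 CPM in TICs and 125, 60.6, 88.1 and 45.3 CPM in knockdown TICs. Its TIC library was lower in H1703, H1299 and CALU, higher in CHAGO, and the log2 fold change was −1.08 (SE 0.39, edgeR adjusted p = 0.319). The 2 genes of chromosome structure were abundant. MKI67, the Ki-67 antigen that coats mitotic chromosomes, had 48500, 24597, 41507 and 67812 reads in parental cells, 29337, 6614, 70723 and 9117 in TICs and 27275, 7349, 45284 and 10184 in knockdown TICs. That is 1764, 640, 623 and 783 CPM in parental cells, 1320, 214, 865 and 110 CPM in TICs and 1053, 324, 598 and 144 CPM in knockdown TICs. H1703 had the highest MKI67 level in each state, and the log2 fold change was −1.14 (SE 0.46, edgeR adjusted p = 0.364), lower in 3 lines. TOP2A, the topoisomerase that untangles sister chromatids, stood at 1489, 752, 1626 and 2391 CPM in parental cells, 1107, 361, 1981 and 403 CPM in TICs and 755, 427, 1595 and 368 CPM in knockdown TICs. The TIC value of TOP2A was below the parental value in 3 lines, and the log2 fold change was −1.02 (SE 0.42, edgeR adjusted p = 0.372).

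**Figure D4:**
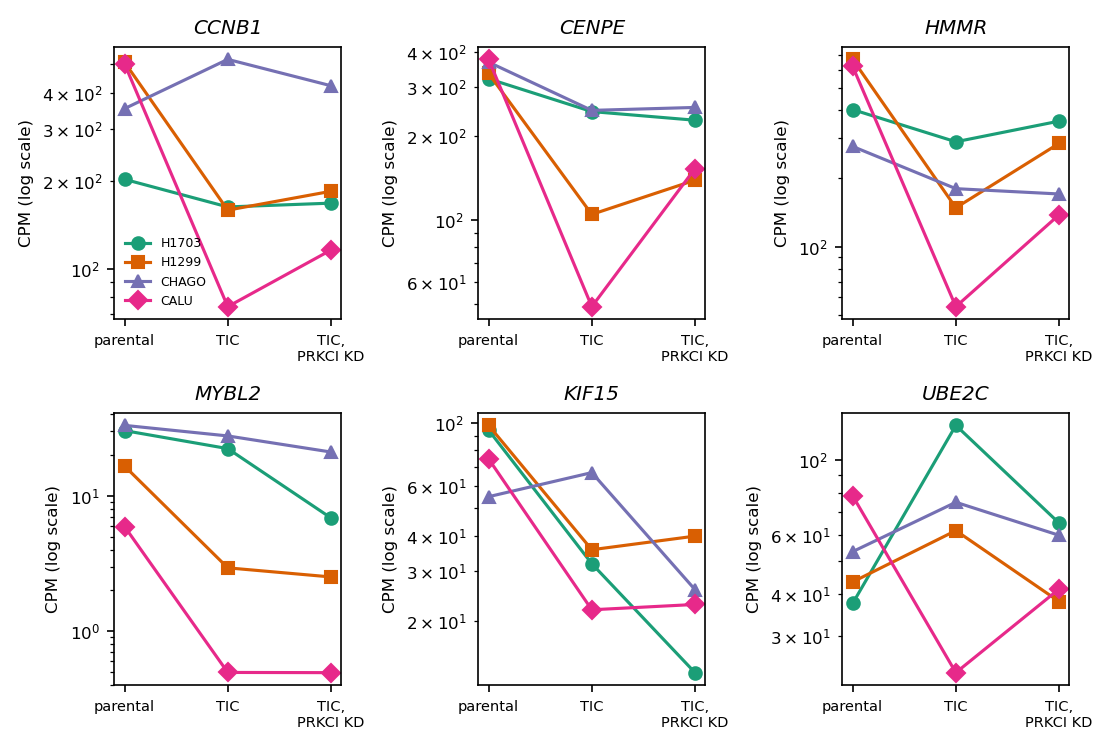
CPM (log scale) of 6 mitosis genes in parental cells, TICs and PRKCI knockdown TICs, one line of points per cell line. CENPE and HMMR are lower in TICs in each line, CCNB1 is higher in CHAGO TICs than in CHAGO parental cells, MYBL2 is lowest in CALU, KIF15 is lower in each knockdown TIC library than in any parental library, and UBE2C is highest in H1703 TICs.

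Per kilobase of exon, which allows genes to be compared, TOP2A was the most abundant of the 46 in parental cells at 272 ± 117 CPM per kilobase and in TICs at 167 ± 132 (SD, n = 4), on the mean over lines. Line by line the order differed, since ANLN was above TOP2A in CALU parental cells, at 564 against 415 CPM per kilobase, and TPX2 and CCNB1 were above it in H1299 parental cells, at 236 and 234 against 131. ANLN, TPX2 and CCNB1 followed TOP2A in the means of both states, with spreads that overlapped throughout. HMMR went from the fifth place in parental cells, at 150 ± 56.2 CPM per kilobase, to place 15 in TICs, at 51.2 ± 29.5. ESPL1 was the least abundant in both, at 2.70 CPM per kilobase in parental cells and 1.48 in TICs, next to INCENP.

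Several genes differed between the lines beyond the spread left after line and state. The edgeR F test of any difference between the 4 lines called 15 of the 46 genes (32.6%), beside 45.4% of all tested genes. They were AURKA, BUB1B, CCNA2, CDC20, CDK1, KIF11, KIF23, KIF2C, KIF4A, MAD2L1, MKI67, MYBL2, NUF2, PLK1 and TOP2A. MAD2L1 had the smallest adjusted p, 0.00114 in edgeR, with 166, 250 and 256 CPM in the 3 CHAGO libraries against at most 117 CPM, in CALU parental cells, in the libraries of the other lines. Averaged over the states, CHAGO held the highest level of 29 genes and H1703 of 11, H1299 of 5 and CALU of 1. CALU held the lowest level of 27 genes, H1299 of 13, H1703 of 4 and CHAGO of 2. The order of the lines was not the same in parental cells alone, where CALU had the highest sum and CHAGO and H1299 the lowest, 10597 and 10603 CPM.

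The comparison of knockdown TICs with TICs asks whether less PRKCI goes with another level of these genes within TICs. The 46 genes were split, 19 lower and 27 higher, and their log2 fold changes had a median of 0.06 beside −0.01 over all tested genes. The median was above 0 in CALU (0.53) and H1299 (0.17) and below it in H1703 (−0.33) and CHAGO (−0.11). In edgeR 0 of 46 passed an adjusted p of 0.05, where 0.0143% of all tested genes did, and the smallest adjusted p was 0.980. At an unadjusted p under 0.05 there was also none of the 46, beside 2.2% of all tested genes lower and 2.08% higher. DESeq2 and limma voom called 0 of the 46 as well, each beside 0.0785% of all tested genes. Lower in 4 of 4 lines were 2 genes, BIRC5 and MYBL2, or 1 gene with DESeq2 size factors, beside 7.14% of all tested genes. Higher in 4 of 4 lines were 0, beside 7.23%. For 0 of the 46 genes were all knockdown libraries below all TIC libraries, which held for 0.421% of all tested genes.

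BIRC5 was lower in knockdown TICs than in TICs in each line, with log2 differences of −0.51, −1.4, −0.18 and −0.47. Its log2 fold change was −0.63 (SE 0.42, edgeR adjusted p = 0.980), with a 95% interval of −1.57 to 0.30. MYBL2 was at −0.68 (SE 0.59, edgeR adjusted p = 0.980), and in CALU its level hardly differed, at 0.495 and 0.493 CPM. INCENP had the lowest log2 fold change of this comparison, −0.72 (SE 0.47, edgeR adjusted p = 0.980), with an interval of −1.76 to 0.32, and it was higher in CHAGO. HMMR had the highest, 0.51 (SE 0.42, edgeR adjusted p = 0.980), with an interval of −0.43 to 1.45. CCNB1 was at 0.07 with an interval of −0.89 to 1.03, so the sign of its difference is not resolved by this design. The kinases AURKA, PLK1 and CDK1 were at 0.06, 0.30 and 0.45, and the kinetochore motor CENPE was at 0.39. In CALU, 11 of the 46 genes were higher by more than 1 on the log2 scale after knockdown (23.9%), beside 12.7% of all tested genes, with CENPE the most at 1.64. In H1703, 7 were lower by more than 1 (15.2%), beside 16.7% of all tested genes, with CDCA8 the most at −1.71.

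**Figure D5:**
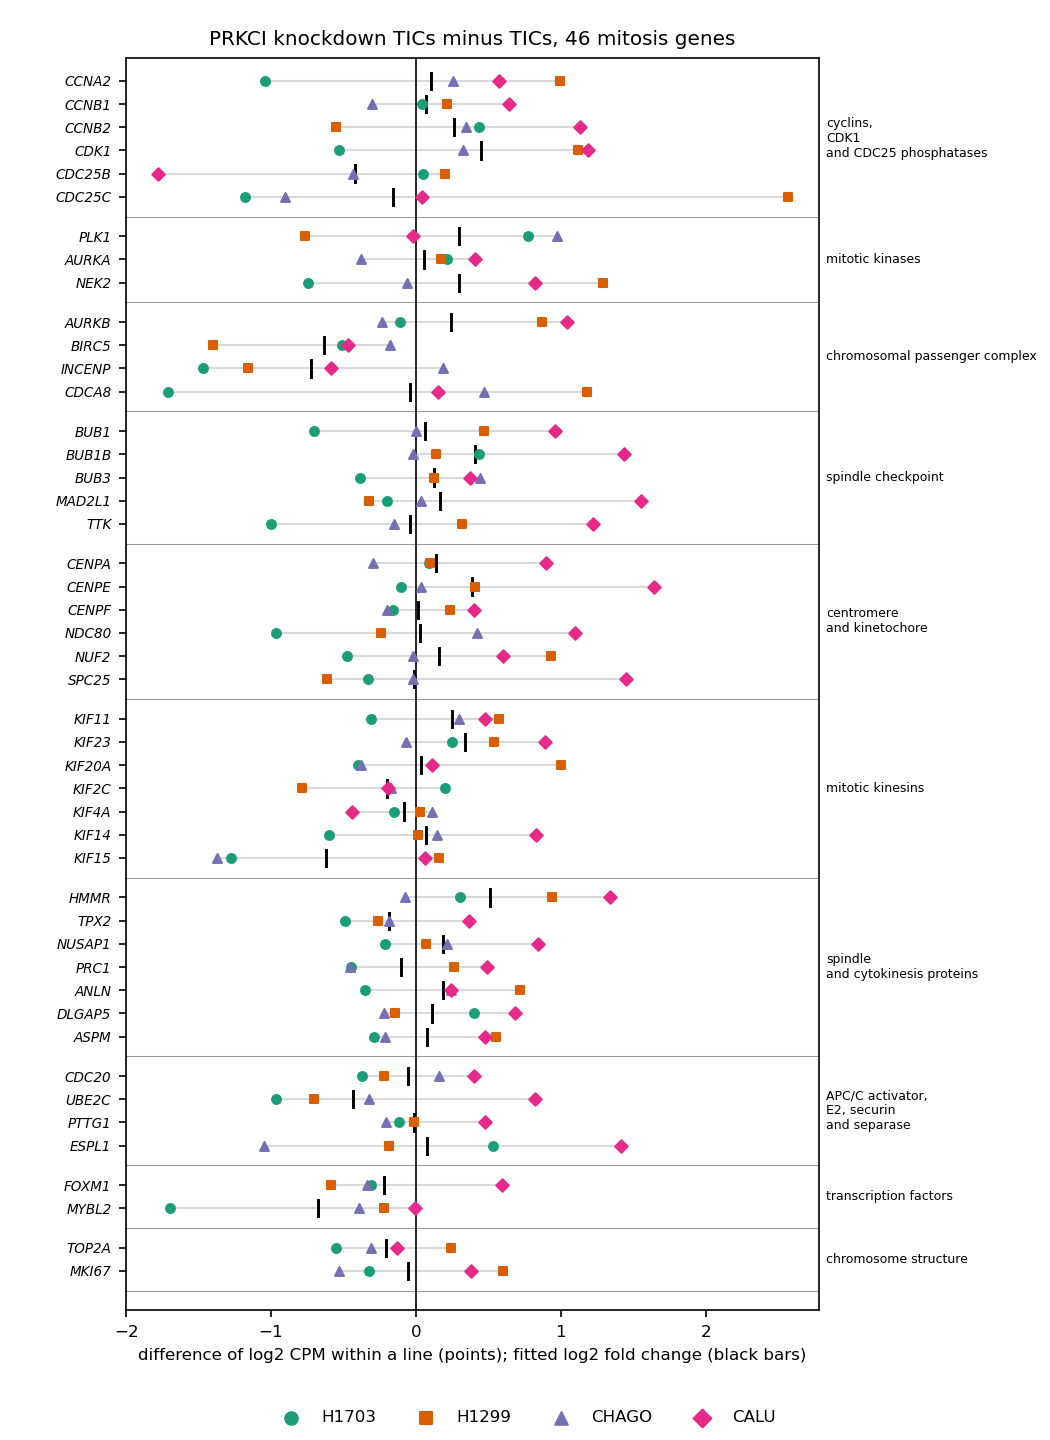
Difference of log2 CPM between PRKCI knockdown TICs and TICs within each line (coloured points) and fitted log2 fold change (black bars) for the 46 genes, grouped by role. The black bars lie between −0.72 (INCENP) and 0.51 (HMMR), and the points of the 4 lines fall on both sides of 0 for 44 genes.

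Knockdown TICs and TICs were each set against the same parental libraries, so the values that follow share those libraries with the first comparison. All 46 fitted levels were lower in knockdown TICs than in parental cells, 45 with the authors' mode-normalized values, with a median log2 fold change of −1.003 beside −0.05 over all tested genes. Line by line it was lowest in CALU (−1.84), then H1299 (−1.19) and H1703 (−0.68), and above 0 in CHAGO (0.28). In edgeR 0 of 46 passed an adjusted p of 0.05, where 0.0357% of all tested genes did. At an unadjusted p under 0.05 there were 21 of 46 lower, beside 5.29% of all tested genes, and 0 higher, beside 5.45%. The 21 became 8 without H1299, 9 without CALU, 8 without the CALU knockdown library alone and 37 without CHAGO. The interaction test for CHAGO called 0 of 46 here, beside 0.0428% of all tested genes. At an unadjusted p under 0.05 it gave 14, each with a higher difference in CHAGO, beside 3.41% of all tested genes with that direction. For CALU the interaction test called 0 of 46, beside 6 of all 14008 tested genes. There 11 of the 46 had an unadjusted p under 0.05, each with a lower difference, beside 3.03% of all tested genes in that direction. For H1703 and H1299 there were 0 of the 46 at that p, beside 5.36% and 5.24% of all tested genes in either direction. Lower in 4 of 4 lines were 13 of 46, beside 9.11% of all tested genes, and higher in 4 of 4 were 0, beside 8.1%. The 13 were CDC25C, CENPE, CENPF, KIF11, KIF20A, KIF15, HMMR, PRC1, ASPM, ESPL1, MYBL2, TOP2A and MKI67. A further 30 of 46 were lower in H1703, H1299 and CALU and higher in CHAGO, beside 6.83% of all tested genes. Without CALU the median was −0.61 and 43 genes were lower.

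KIF15 had the smallest p of this comparison, at 94.2, 97.9, 54.8 and 74.6 CPM in parental cells, 31.8, 35.6, 66.7 and 21.9 CPM in TICs and 13.1, 39.8, 25.8 and 22.8 CPM in knockdown TICs. All 4 knockdown libraries of KIF15 lay below all 4 parental libraries, and the log2 fold change was −1.75 (SE 0.40, edgeR adjusted p = 0.194). In CHAGO its level was higher in TICs than in parental cells and lower in knockdown TICs than in both. CENPE was the other gene whose knockdown and parental libraries did not overlap, with a log2 fold change of −0.96 (SE 0.35, edgeR adjusted p = 0.364). These 2 of 46 compare with 0.949% of all tested genes. MYBL2 had the lowest value, −2.43 (SE 0.63, edgeR adjusted p = 0.227), and UBE2C the one nearest to 0, −0.15 (SE 0.44, edgeR adjusted p = 0.934), or 0.02 with the mode-normalized values. BIRC5 was at −1.57 (SE 0.44, edgeR adjusted p = 0.241) and FOXM1 at −1.30 (SE 0.39, edgeR adjusted p = 0.260). CDK1 was at −0.51 and CCNB1 at −1.06. DESeq2 called 3 of the 46 genes in this comparison, BIRC5, KIF15 and MYBL2 (6.52%), beside 2.82% of all tested genes in either direction. Of all 14008 tested genes it called 137 lower. In limma voom 0 of the 46 were called, beside 1.09%.

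Within a line, the 3 states were ordered in the same way for most genes in only part of the lines. The parental library was the highest of its line for 45 genes in CALU, 44 in H1299 and 37 in H1703, but for 6 in CHAGO. In CALU and H1299 the lowest library was mostly that of TICs, for 38 and 29 genes. In H1703 it was mostly that of knockdown TICs, for 32 genes. In CHAGO the parental library was the lowest for 31 genes and the TIC library the highest for 26.

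A longer list of 87 other mitosis genes, of which 86 could be tested, gave 76 lower in TICs than in parental cells (88.4%, beside 51.3% of all tested genes) with a median log2 fold change of −0.76. None of them passed an adjusted p of 0.05, and 36 (41.9%) had an unadjusted p under 0.05, all lower, beside 6.06% of all tested genes. TFDP1, the dimer partner of E2F factors, had the smallest p, with 770, 396, 809 and 748 CPM in parental cells and 392, 145, 592 and 328 CPM in TICs. It was lower in 4 of 4 lines at −1.01 (SE 0.22, edgeR adjusted p = 0.188). SKA3, of the complex that couples kinetochores to microtubules, was at −1.39 (SE 0.33, edgeR adjusted p = 0.197), and ZWINT, a kinetochore scaffold, at −1.32 (SE 0.36, edgeR adjusted p = 0.227), both lower in 4 lines. SGOL1, shugoshin, which protects cohesin at centromeres, was at −1.47 (SE 0.38, edgeR adjusted p = 0.207), lower in 3. By line, 69 of the 86 were lower in H1703, 69 in H1299 and 81 in CALU. In CHAGO 49 of 86 were higher in TICs, with a median of 0.14, among them 4 of 8 condensin and 13 of 16 spindle genes. Lower in 4 of 4 lines were 23 of 86 (26.7%), beside 8.97% of all tested genes. By role, in fitted level over the 4 lines, 8 of 8 condensin genes were lower with a median of −1.11 and 8 of 8 cohesin genes and protectors with −0.65. Of further kinetochore genes 17 of 20 were lower with −0.84, and of further spindle and cytokinesis genes 16 of 16 with −0.72. The subunits of APC/C were lower in 11 of 14 with a median of −0.52. The 9 tested genes of the DREAM and MuvB complexes, the latter known for binding CHR elements, had a median of −0.07, with 6 lower. TFDP1 is listed among these 9, and the gene at their median, LIN37, had a wide SE of 1.14.

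Genes of G1/S and DNA replication, listed as a comparison, were also lower in fitted level. All 32 were tested and 32 were lower in TICs than in parental cells, with a median log2 fold change of −1.04, and 0 passed an adjusted p of 0.05. Their median difference was −1.92 in CALU, −1.48 in H1299 and −0.78 in H1703, with −0.00037 in CHAGO. Summed, they were 1.46-fold lower in TICs than in parental cells of H1703, 2.74-fold in H1299 and 3.60-fold in CALU, with 3337 and 3381 CPM in the 2 CHAGO libraries. In CHAGO the summed mitosis genes were thus higher in TICs while the summed G1/S genes were nearly level, a difference between single libraries that has no replicate. After knockdown the G1/S genes split like the mitosis genes, with 14 of 32 lower than in TICs and a median of 0.08.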

How the data were processed

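RNA sequencing was measured in 12 libraries, 1 for each line in each state. Qiagen RNeasy extraction and NuGEN reagents were used, per the labels' protocols. CASAVA 1.4, TopHat 1.4, HTSeq 0.5.3p3 and the build hg19 are named in the submitters' processing notes, without their roles, and strand handling is not given in the sources used here. The main deposited table gives raw read counts by gene, per the file headers. Another deposited table gives a mode-normalized score, which equals the count times 1 factor per library, rounded, as a comparison of the tables showed. For knockdown TICs of CALU, column name and title are spelled with 1 letter of difference. The log2 CPM of this library correlated across genes at 0.918 with CALU TICs and at most at 0.738 with another line.

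Counts were tested in R 4.3.3 with edgeR 4.0.16 (filterByExpr by state, TMM, robust quasi-likelihood F test, line and state as terms, 6 residual degrees of freedom, two-sided). Benjamini-Hochberg adjustment ran over the 14008 tested genes, with a threshold of 0.05. The common dispersion of 0.489 corresponds to a biological coefficient of variation of 0.699. Differences within a line were taken between log2 CPM values (prior count 2) and have no test, since a line has 1 library per state. Lines were kept as a block because the labels name them. With state means subtracted, libraries of 1 line correlated at 0.553 to 0.760 across genes and those of different lines and states at −0.414 to −0.0601. Subtracting state means itself pushes the values between different lines below 0 when those within a line are positive. Intervals of 95% come from the same fit. A fit with an interaction of state and 1 line, each line in turn (4 residual degrees of freedom), was added after the data were seen.

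The 46 genes, their roles and the comparison lists were chosen with earlier results of these data known, so a list is described by its counts and median and has no test of its own. For each role the gene of smallest p in TICs against parental cells is given with the reads and CPM of every library, and 17 further or coinciding genes are always given in CPM, with the extremes of each comparison and the 4 other mitosis genes of smallest p. On simulated counts for TICs against parental cells (13547 genes) the fit called 4% of 50 genes given a log2 difference of 1. The share was 68% at 2, 82% at 3 and 94% at 4. The fit also made 6 false calls there. Whether these shares hold for the 46 genes, whose differences varied between the lines, was not tested. Exon lengths per kilobase are unions of protein-coding exons of GENCODE, and promoter windows are those of RefSeq on GRCh38.p14, the first listed where a gene has several. The last 30 bases of the window were found in a transcript of the gene for 35 of 39 genes. Alternatives were DESeq2 1.42.0 size factors or library totals, other filters, no block, 2 states only, each line left out, pairs of lines, DESeq2, limma 3.58.1 voom and limma on the mode-normalized values (pseudocount 1).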

Additional observations from a re-analysis of the deposited data

Results flagged for a closer look

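Single libraries stood far from the other 3 of their state in 9 of 138 groups of 4, judged by Dixon's criterion on log2 CPM. Chance alone flags about 1 group in 20, so 9 of 138 lies near that rate. The 4 libraries of a group are different lines, and the groups share the same 12 libraries, so they are not independent. In 6 of the 9 the library was that of CHAGO knockdown TICs, the highest of its state: CCNA2 at 543 CPM, where the next library was at 74.8 CPM, BIRC5 at 83.1 against 20.1 CPM, TTK at 214 against 80.0 CPM, KIF2C at 98.2 against 10.3 CPM, NUSAP1 at 537 against 168 CPM and ANLN at 1731 against 472 CPM. MAD2L1 was highest in CHAGO TICs, at 250 CPM against 18.2 CPM in the next library. CENPF was highest in H1703 knockdown TICs, at 721 against 301 CPM. CDC25C was lowest in H1703 parental cells, at 6.11 CPM, where the next library was at 18.1 CPM.

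The median difference of the 46 genes had the opposite sign in CHAGO to that in each of the other lines, 0.42 in TICs against parental cells and 0.28 in knockdown TICs against parental cells. Both share the CHAGO parental library. The difference of the medians was not tested. Gene by gene, an edgeR interaction of CHAGO with state, added after these values were seen, called 0 of 46 genes in either comparison. Of all tested genes it called 0.0357% and 0.0428%. The smallest edgeR adjusted p of the 46 was 0.495 and 0.472. At an unadjusted p under 0.05 there were 23 and 14, each higher in CHAGO, beside 3.47% and 3.41% of all tested genes. The same test for CALU called 0 of 46 in either comparison. It gave 24 and 11 at that p, each lower in CALU, beside 2.23% and 3.03% of all tested genes.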

How the results depend on the processing

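Over the alternatives, 0 of the 46 genes were called in edgeR or limma in any comparison of states, while DESeq2 called 2 in TICs against parental cells and 3 in knockdown TICs against parental cells. Over all tested genes the edgeR counts were 4, 2 and 5 in TICs against parental cells, knockdown TICs against TICs and knockdown TICs against parental cells. They were 0, 0 and 0 with no replicate block, with only the 2 compared states, within H1703 and H1299 and within CHAGO and CALU. DESeq2 called 509, 11 and 395 genes, limma voom 170, 11 and 152, and limma on the mode-normalized values 43, 1 and 20. DESeq2 size factors gave 8 in knockdown TICs against parental cells, and a filter of 1 CPM in 4 libraries gave 0 in knockdown TICs against TICs and 3 against parental cells. Leaving out 1 line, or the CALU knockdown library, gave 0 to 4, 0 to 1 and 0 to 2 genes, and 12 to 29 of the 46 lower in knockdown TICs than in TICs. The cause was not tested.

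Lines differed in 15 of the 46 genes (32.6%), beside 45.4% of all tested genes. The count was 28 with DESeq2, 31 with the mode-normalized values and 8 to 18 without 1 line or library. All-gene counts for these settings are not given here, so a shift is not read as particular to the 46 genes. Within H1703 and H1299 it was 9 of 46, beside 2053 of 13414 tested genes. Within CHAGO and CALU it was 2 of 46, beside 2603 of 14919 tested genes. With DESeq2 size factors 1 gene was lower in 4 lines in knockdown TICs than in TICs. The sign turned for CDK1 in knockdown TICs against parental cells with no replicate block (0.018). For UBE2C it turned against parental cells in knockdown TICs (0.025 with mode-normalized values, 0.22 without CALU against −0.39 without H1703, 0.29 within H1703 and H1299) and in TICs (−0.22 without H1703 against 0.90 without CALU, −0.63 within CHAGO and CALU). For PRKCI it turned in TICs against parental cells without CHAGO (−0.21, against 0.33 without H1299) and within H1703 and H1299 (−0.24). Mode-normalized values shifted the median of all genes to 0.11 in TICs against parental cells, and library totals to −0.11 in knockdown TICs against parental cells. Without the block the median of the 46 genes was −0.72 in TICs against parental cells and −0.68 in knockdown TICs against parental cells.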
